A study of Mus musculus with 2 samples.

Results

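Pre-mRNA splicing factors and heterogeneous nuclear ribonucleoproteins (hnRNPs) were examined in mouse hippocampus on 2 two-colour oligonucleotide arrays. The members are all probes whose gene symbol in the platform annotation begins with Sfrs and a digit, Srsf, Hnrp, Hnrnp, Sf3, Snrp or Prpf, without Snrpn. This rule found 58 genes of the 16446 that the annotation names, on 60 probes, because Hnrpa3 and Snrpg have a pair of probes each. By symbol they form 5 classes, with 15 Sfrs, 14 Hnrp, 7 Sf3, 11 Snrp and 11 Prpf genes. Other genes of these families were not analysed as members, and a list of 50 other splicing genes is set beside the members below.

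The mice were AtrxdE2 given TMPyP4, AtrxdE2 without it, and wild type (WT). The mutants carry AtrxΔE2, an allele of Atrx, which encodes a chromatin remodeller and is mutated in a human X-linked intellectual disability syndrome, and TMPyP4 is a porphyrin that binds G-quadruplexes, the four-stranded structures formed by G-rich nucleic acid. TMPyP4 went into the peritoneum in doses of 30 mg/kg, 2 times weekly, between postnatal days 30 and 90. Each RNA came from a pool of 5 mice, and 1 array carried AtrxdE2+TMPyP4 against WT while the other carried AtrxdE2 against WT. The mutant pools were always labelled with Cy3 and WT with Cy5, so dye and genotype cannot be told apart in a ratio. Strain, sex and age at dissection, whether untreated AtrxdE2 mice were given vehicle, and whether both WT samples were 1 pool are not stated in the labels. With 1 array per comparison no test is possible, so every value below describes these arrays, and their number limits the precision.

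Splicing removes introns from pre-mRNA in the spliceosome, a machine built from small nuclear ribonucleoproteins (snRNPs) and many further proteins. SR proteins bind exonic enhancers through RNA recognition motifs and recruit the machinery through domains rich in arginine and serine, whereas many hnRNPs bind silencers, package nascent transcripts or follow mRNAs to the cytoplasm and into dendrites. Genes of both families commonly regulate their own transcripts through alternative exons that lead to decay. Which exons or isoforms the probes detect was not analysed here. In whole tissue, fewer cells of a type and less RNA per cell cannot be told apart.

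Upstream sequences are shown for 5 of the 8 members that stood at least 1.5-fold from 0 in a comparison below, because the ligand used in the study binds G-rich sequence. No window was used for Sfrs10, whose old name is ambiguous. Those of Sfrs8 and Hnrpa3 are not printed, and this choice followed no stated rule. The sequences shown are the 250 bases before the RefSeq start site (GRCm38.p6), 5′ to 3′ on the gene's strand, with each run of at least 3 G or 3 C in capitals. The Sfrs15 window (now Scaf4) lies at chr16:90284504-90284753, minus strand, that of Sfrs6 (now Srsf6) at chr2:162931258-162931507, plus strand, and that of Sfrs5 (now Srsf5) at chr12:80945249-80945498, plus strand. Those of Sf3a3 and Hnrpl (now Hnrnpl) lie on the plus strand at chr4:124714611-124714860 and chr7:28810640-28810889.
Sfrs15: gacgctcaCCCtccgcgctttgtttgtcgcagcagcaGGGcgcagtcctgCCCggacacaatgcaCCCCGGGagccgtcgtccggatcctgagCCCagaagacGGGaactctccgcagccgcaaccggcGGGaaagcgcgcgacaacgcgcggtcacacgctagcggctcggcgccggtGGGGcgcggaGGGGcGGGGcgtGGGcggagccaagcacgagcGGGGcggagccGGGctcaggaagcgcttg
Sfrs6: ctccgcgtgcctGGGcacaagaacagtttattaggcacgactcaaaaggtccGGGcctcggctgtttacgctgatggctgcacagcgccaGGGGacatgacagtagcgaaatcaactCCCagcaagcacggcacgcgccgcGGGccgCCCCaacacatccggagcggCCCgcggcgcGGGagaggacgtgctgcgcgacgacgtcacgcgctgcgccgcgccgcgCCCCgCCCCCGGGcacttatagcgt
Sfrs5: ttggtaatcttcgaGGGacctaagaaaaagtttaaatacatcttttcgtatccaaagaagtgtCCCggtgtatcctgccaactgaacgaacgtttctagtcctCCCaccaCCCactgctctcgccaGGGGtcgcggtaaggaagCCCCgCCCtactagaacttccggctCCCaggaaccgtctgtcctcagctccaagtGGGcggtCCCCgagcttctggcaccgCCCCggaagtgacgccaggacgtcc
Sf3a3: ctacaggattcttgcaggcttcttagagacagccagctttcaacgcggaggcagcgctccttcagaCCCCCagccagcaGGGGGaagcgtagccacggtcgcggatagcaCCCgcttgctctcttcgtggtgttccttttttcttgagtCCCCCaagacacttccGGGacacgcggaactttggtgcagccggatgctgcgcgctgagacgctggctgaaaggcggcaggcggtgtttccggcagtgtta
Hnrpl: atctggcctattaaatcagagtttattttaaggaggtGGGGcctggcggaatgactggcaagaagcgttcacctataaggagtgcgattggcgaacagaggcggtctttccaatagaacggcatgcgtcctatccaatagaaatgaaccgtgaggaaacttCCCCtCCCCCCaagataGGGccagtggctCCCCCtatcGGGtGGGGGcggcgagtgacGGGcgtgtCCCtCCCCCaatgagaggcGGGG

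A quadruplex motif was searched on both strands of these windows as 4 runs of GGG (or CCC) separated by spacers of 1 to 7 bases of any kind. The printed Sfrs15 window, 1 of 2 that RefSeq lists, held a match of 25 bases from 71 to 47 bases before the start site, in a window with 72.8% G and C. The windows printed for Sfrs6, Sfrs5, Sf3a3 and Hnrpl held no match, nor did those of Sfrs8 and Hnrpa3, which are not printed. RefSeq windows were found for 52 of the 58 genes (not for Hnrpll, Prpf18, Sf3b5, Sfrs10, Snrpb and Snrpd1), and 21 of their 71 windows (29.6%) held the motif, compared with 16.7% of all 32851 windows. Member windows were also richer in G and C, with a median of 60.4%, compared with 52.4% over all windows. The 15 member genes with a match had a median log2 difference between AtrxdE2+TMPyP4 and AtrxdE2 of -0.18 (quartiles -0.27 and 0.15), and the 37 without one had -0.006 (quartiles -0.18 and 0.12), so the groups overlapped over most of their range. A match describes these letters and is not evidence of a structure or of binding.

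All 60 member probes were above background in all 4 channels, compared with 79.5% of all probes on the array, and 53 lay above the median signal of the 18664 measured probes. All 11 hippocampal neuron markers, including Prox1, Wfs1 and Camk2a, were measured in every channel, but so were all 8 striatal markers, so detection alone does not tell the labelled tissue from another brain region. Atrx itself had a log2 ratio of -0.36 in AtrxdE2+TMPyP4 over WT and of -0.68 in AtrxdE2 over WT, against -0.78 and -1.96 in the authors' value table. The position of the Atrx probe within the gene was not examined, so it may not read the deleted part. The WT channels of both arrays, the only group on both arrays, differed with an SD of 0.27 log2 units over all measured probes and of 0.33 over the members. A member's WT difference between the arrays is therefore given beside its values where it was large.

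In AtrxdE2 over WT the members as a group stood close to WT, but they were spread to both sides. Their median log2 ratio was 0.036 (SD 0.26 over 60 probes), with quartiles of -0.08 and 0.20, and 36 of 60 were above 0, compared with 50.5% of all measured probes. All measured probes had a median of 0.002 (SD 0.20), and those above the median signal had an SD of 0.24. At least 1.5-fold higher were 2 of 60 probes, Sfrs15 and Sfrs10, against 0.616% of all measured probes and 0.932% of the brighter ones. At least 1.5-fold lower were likewise 2 of 60, Sfrs5 and 1 of both Hnrpa3 probes, against 0.68% of all and 1.25% of the brighter probes. The authors' value table has ratios that are not compressed by an offset. It put 3 of 60 higher and 3 lower, against 5.2% and 5.21% of measured probes, so there the share of members was near that of all probes. These shares include dim probes. The share among brighter probes, where most members lay, was not computed for that table. With median centring in place of loess, 49 of 60 members were above 0 in AtrxdE2 over WT and 56 of 60 in AtrxdE2+TMPyP4 over WT, against 60.8% and 62.8% of all measured probes.

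**Figure D1:**
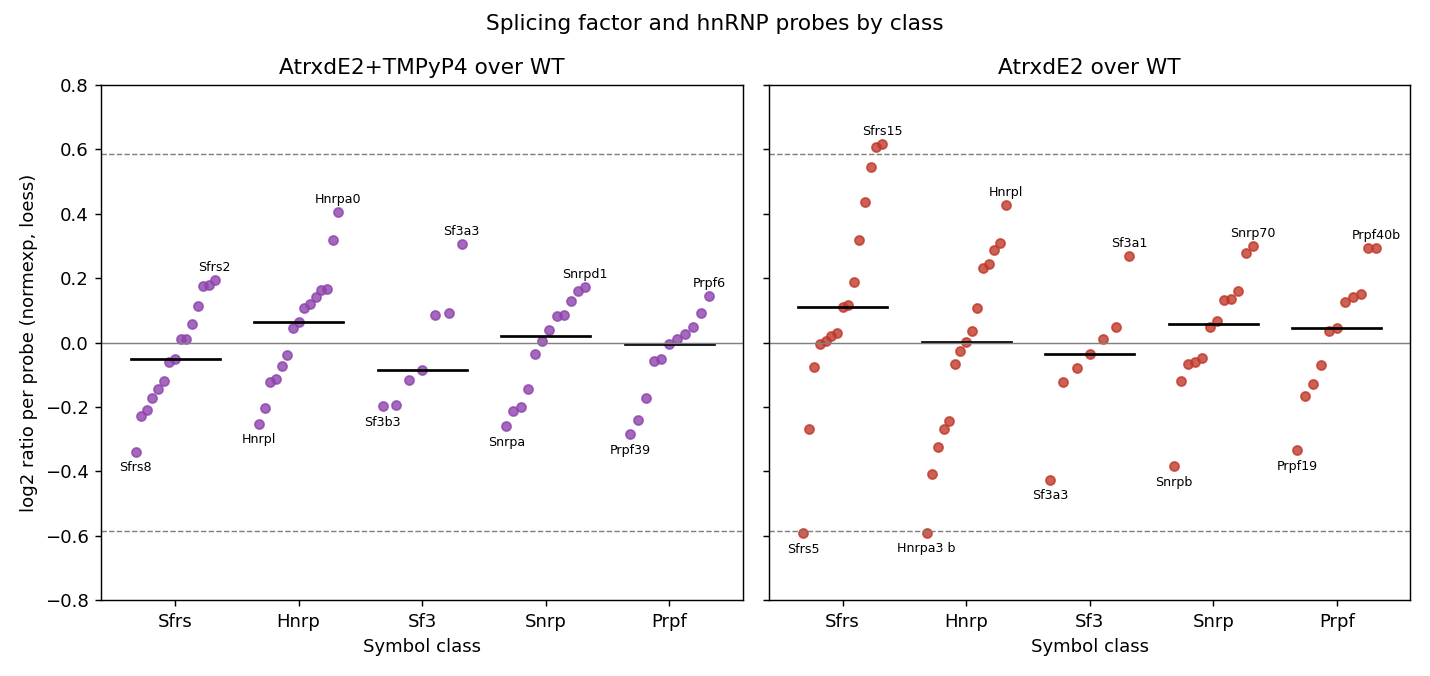
log2 ratio of each member probe over WT on the same array (vertical axis), sorted within the 5 symbol classes, for AtrxdE2+TMPyP4 (left) and AtrxdE2 (right). Black bars are class medians, dashed lines mark 1.5-fold, and the lowest and highest probe of each class are named. The Sfrs class spans -0.59 to 0.62 in AtrxdE2 and -0.34 to 0.19 in AtrxdE2+TMPyP4.

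The Sfrs genes were the most widely spread class in AtrxdE2, with a median of 0.11 (SD 0.33 over 15 probes) and 11 of 15 above 0. Among the classical SR proteins, Sfrs6, which encodes the splicing regulator SRSF6 (SRp55), had a normalized log2 signal of 9.66 in AtrxdE2 and 9.11 in WT, a log2 ratio of 0.55. Sfrs5, which encodes SRSF5 (SRp40), went the opposite way, with 9.17 in AtrxdE2 and 9.76 in WT, a ratio of -0.59. The 500 measured probes nearest in signal to these genes had SDs of 0.23 and 0.25, and the ratios lay at their percentiles 99.2 and 1.4. The sign for Sfrs5 did not hold with each spot's local background as the background level, which gave 0.41.

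Sfrs1, the founding SR protein ASF/SF2, had a ratio of -0.27 in AtrxdE2 over WT. Sfrs2, which encodes SC35, had 0.11, Sfrs11 0.19, and Sfrs4, Sfrs7 and Sfrs9 lay between -0.08 and 0.005. The remaining genes of the class carry the old Sfrs name without being classical SR proteins. Sfrs15 (now Scaf4, a protein that binds the tail of RNA polymerase II) had 8.31 in AtrxdE2 and 7.69 in WT, a ratio of 0.62. Sfrs10, a name that RefSeq lists as a synonym of both Tra2b and Srsf2, had 8.33 in AtrxdE2 and 7.72 in WT, a ratio of 0.61. Sfrs8 (now Sfswap, a splicing regulator first described in Drosophila) had 0.44 and Sfrs14 (now Sugp2) 0.32. Sfrs12 (Srek1), Sfrs16 (Clasrp) and Sfrs2ip (Scaf11) lay between 0.02 and 0.12. The genes of this old-name group were above 0 in AtrxdE2, although Sfrs2ip had -0.02 in the authors' value table and -0.06 with local background. With local background the Sfrs10 ratio was 0.21.

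Among the hnRNP genes, the median in AtrxdE2 over WT was 0.002 (SD 0.30 over 15 probes), with 8 of 15 above 0. Hnrpl, which encodes a protein that binds CA repeats, was the highest, with 11.18 in AtrxdE2 and 10.76 in WT and a ratio of 0.43. It was followed by Hnrpll, its close relative, with 0.31. Hnrpa2b1, whose protein recognises a trafficking element in mRNAs carried into dendrites and oligodendrocyte processes, had 0.24. On the lower side stood Hnrpk, which encodes a poly(C)-binding protein, with 8.76 in AtrxdE2, 9.17 in WT and a ratio of -0.41. Hnrpc, whose protein binds uridine-rich tracts in introns, had -0.32, Hnrpd, which encodes the mRNA decay factor AUF1, -0.27 and Hnrpdl -0.24. Hnrpd was dim, and its ratio was -1.16 in the authors' value table. Hnrpu, which encodes the nuclear scaffold protein SAF-A, had -0.07. Hnrpab, Hnrpf, Hnrpa0, Hnrph1 and Hnrpul1 lay between -0.03 and 0.23. The Hnrpa3 probes disagreed, with 0.29 for probe a and -0.59 for probe b, so no direction is given for this gene.

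The constitutive core had smaller SDs than the Sfrs and Hnrp classes in AtrxdE2 over WT, with no test of this difference. Components of the U2 snRNP that bind the branch point had a median of -0.03 (SD 0.21 over 7 Sf3 probes), from Sf3a3 at -0.43 to Sf3a1 at 0.27, with Sf3b1, the largest SF3B subunit, at 0.05. Sf3a2, Sf3b2, Sf3b3 and Sf3b5 lay between -0.12 and 0.01. Sf3a3 had 9.20 in AtrxdE2 and 9.62 in WT. The Snrp class, with a median of 0.06 (SD 0.19 over 12 probes), holds the Sm ring common to the spliceosomal snRNPs and proteins specific to U1 and U2. Of the Sm genes, Snrpb had -0.38, and Snrpd1, Snrpd2, Snrpd3, Snrpf and both Snrpg probes lay between -0.12 and 0.28. Snrp70, which encodes the U1-70K protein that marks the 5′ splice site, was the highest of the class with 0.30, whereas the U1 genes Snrpa and Snrp1c (now Snrpc) had -0.05 and -0.07. The U2 genes Snrpa1 and Snrpb2 had 0.16 and -0.06.

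Prpf genes had a median of 0.05 (SD 0.20 over 11 probes) in AtrxdE2 over WT. Prpf8, the central scaffold of the U5 snRNP, had 0.04, and -0.31 with local background. Prpf3, Prpf31 and Prpf6, tri-snRNP proteins that like PRPF8 are mutated in human retinitis pigmentosa, had -0.17, -0.13 and 0.13. Prpf19, the ubiquitin ligase of the complex named after it, was lowest at -0.33, and the U1-associated factors Prpf40b and Prpf39 were highest at 0.29 each. Prpf18, Prpf38a, Prpf38b and Prpf4b lay between -0.07 and 0.15.

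In AtrxdE2+TMPyP4 over WT, no member was 1.5-fold from WT in either direction, against 0.895% of measured probes higher and 0.563% lower. Among probes above the median signal these shares were 1.32% and 1.05%. The median was 0.007 (SD 0.16 over 60 probes), the range ran from -0.34 to 0.41, and 31 of 60 were above 0, compared with 51.7% of measured probes. All measured probes had a median of 0.006 (SD 0.20) and quartiles of -0.09 and 0.11, against member quartiles of -0.14 and 0.11. Probes above the median signal, where 53 of the 60 members lay, had quartiles of -0.12 and 0.16 (SD 0.25). The 53 members among them had quartiles of -0.17 and 0.11 (SD 0.17). The middle part of the members was thus spread no less than that of all probes. Among brighter probes it was about as wide as that of the whole set, although the SD was smaller. Hnrpa0, which encodes an AU-rich element binding protein, was highest with 8.73 in AtrxdE2+TMPyP4 and 8.33 in WT, a ratio of 0.41. Next were Hnrpa2b1, with 12.16 in AtrxdE2+TMPyP4 and 11.84 in WT (ratio 0.32), and Sf3a3 with a ratio of 0.31. The lowest were Sfrs8 at -0.34, Prpf39 at -0.28, Snrpa at -0.26 and Hnrpl at -0.25. With local background Hnrpl had 1.27 in AtrxdE2+TMPyP4 over WT, the opposite sign. With local background, 8 of 60 members were at least 1.5-fold higher, against 6.09% of measured probes.

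By class, medians in AtrxdE2+TMPyP4 over WT were -0.05 for Sfrs, 0.06 for Hnrp, -0.085 for Sf3, 0.02 for Snrp and -0.004 for Prpf genes, with SDs between 0.14 and 0.18. Of the classical SR genes, Sfrs2 had the highest ratio, 0.19, and Sfrs6 the lowest, -0.23, with Sfrs5 at -0.21 and Sfrs1 at -0.06. Both Hnrpa3 probes were above 0 here, at 0.17 and 0.12. In the U2 class Sf3b3 and Sf3b1 had -0.20 and -0.19. Snrpd1 was highest of the Snrp genes with 0.17, while Snrp70 had -0.21 and Snrpb -0.20. Among Prpf genes Prpf6 had 0.15, Prpf8 0.05 and Prpf19 -0.06. Besides Hnrpl, local background turned the sign for Sf3b2 (from -0.12 to 2.37), Hnrpu (1.08), Sfrs1 (0.59), Hnrpul1 (0.22), Sfrs5 (0.18) and Snrpa1 (-0.15). It also turned the sign for Sf3a1 (-0.30), Prpf6 (-0.22) and Sfrs15 (-0.34). Each of these turns was larger than the SD between the WT channels. Without a turn of sign, Snrpg probe b rose from 0.08 to 2.98, Hnrpf from 0.16 to 1.265, Sf3b5 from 0.09 to 0.82 and Prpf8 from 0.05 to 0.56. Sfrs6 fell from -0.23 to -0.55 and Snrpb from -0.20 to -0.50.

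**Figure D2:**
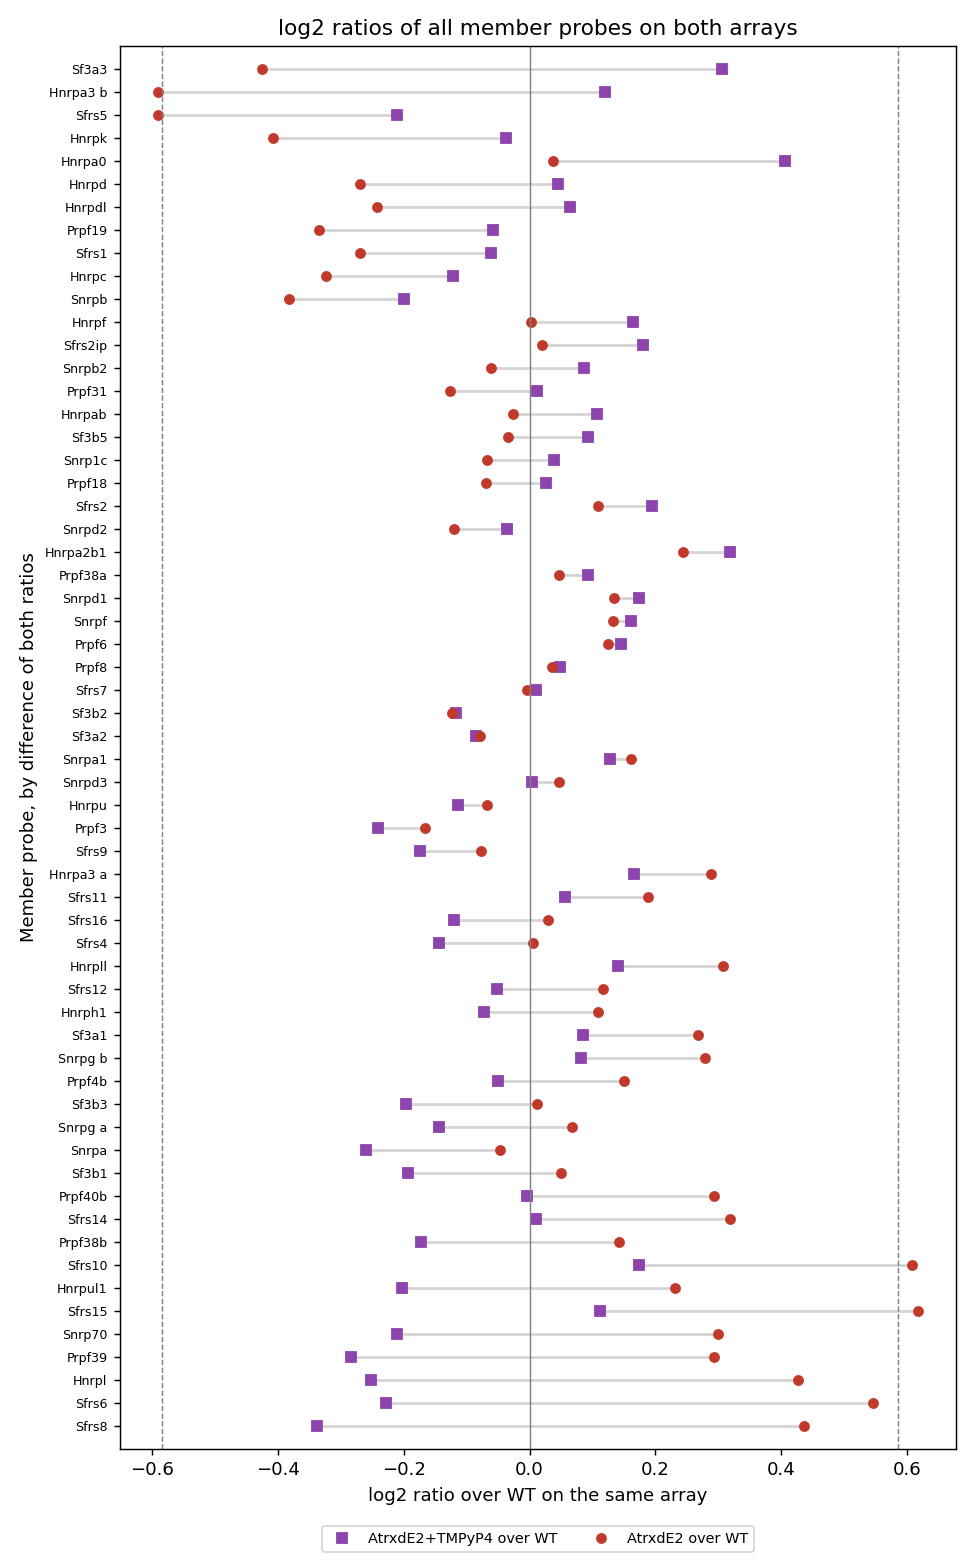
log2 ratio over WT (horizontal axis) of all 60 member probes, with squares for AtrxdE2+TMPyP4 and circles for AtrxdE2, ordered by the difference of both, highest at the top. Dashed lines mark 1.5-fold, and the letters a and b name both probes of Hnrpa3 and Snrpg. Sf3a3 (0.73) and Sfrs8 (-0.78) stand at the ends, and no square lies beyond a dashed line.

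The treated and untreated AtrxdE2 pools were compared through the difference of their log2 ratios over WT, which shares the WT channels with both comparisons above. The median difference of the members was -0.02 (SD 0.31 over 60 probes), compared with 0.007 (SD 0.26) over all measured probes, and 29 of 60 were above 0, compared with 51.4%. At least 1.5-fold higher in the treated pool were 2 of 60, Sf3a3 and Hnrpa3 probe b, against a background of 2.11%. At least 1.5-fold lower were 3 of 60, Sfrs8, Sfrs6 and Hnrpl, against 1.51%. Among brighter probes these shares were 3.49% and 2.2%. The authors' value table gave 3 members higher and 8 lower, against 10.4% and 8.14% of all measured probes. Set against brighter probes, 2 of 60 was near the background on the higher side, whereas 3 of 60 was above it on the lower side, a count too small to read further.

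Sfrs6 had 8.67 in AtrxdE2+TMPyP4 and 8.90 in WT on that array, against 9.66 in AtrxdE2 and 9.11 in WT on the other. The difference of its ratios was -0.77, at percentile 0.4 of the 500 probes nearest in signal (SD 0.31). Its WT signal differed by -0.18 between the arrays after quantile normalization of the WT channels, and its Cy3 signal, treated minus untreated, by -1.02. For this gene the untreated AtrxdE2 channel was the highest of the 4.

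Sfrs8 had 9.03 in AtrxdE2+TMPyP4 and 9.37 in its WT, against 9.49 in AtrxdE2 and 9.05 in its WT. Its difference was -0.78, the lowest of all members, of which WT differed by 0.33 and Cy3 by -0.46. Here the WT channels also stood apart, in the opposite direction.

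Hnrpl had 9.49 in AtrxdE2+TMPyP4 and 9.74 in its WT, against 11.18 in AtrxdE2 and 10.76 in its WT. Both channels of the treated array were lower than both of the other, so the array difference (WT -0.97, Cy3 -1.73) exceeded the difference of the ratios, -0.68. With local background that difference was 0.81, the opposite sign.

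Sf3a3 had 9.46 in AtrxdE2+TMPyP4 and 9.15 in its WT, against 9.20 in AtrxdE2 and 9.62 in its WT, a difference of 0.73. WT differed by -0.46 between the arrays and Cy3 by 0.24, so the WT channels stood farther apart than the Cy3 channels. Hnrpa3 probe b had 9.60 in AtrxdE2+TMPyP4 and 9.48 in its WT, against 9.14 in AtrxdE2 and 9.73 in its WT. Its difference was 0.71, whereas probe a had -0.12.

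**Figure D3:**
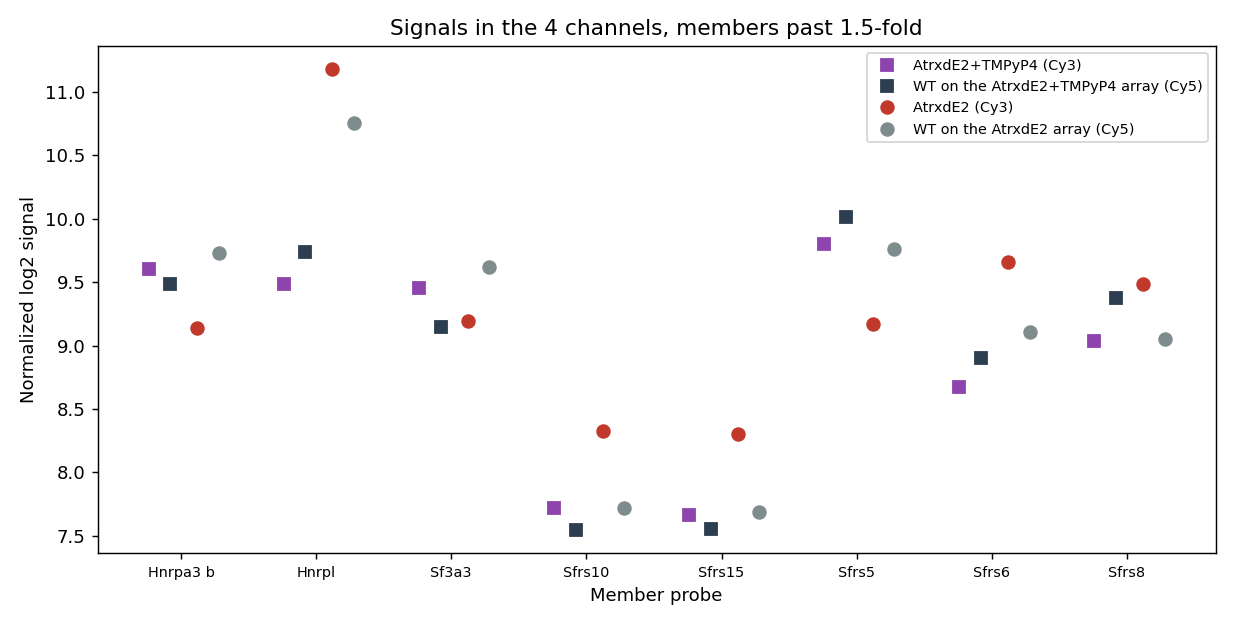
Normalized log2 signal (vertical axis) of the 8 member probes at least 1.5-fold from 0 in a comparison, in the AtrxdE2+TMPyP4 and WT channels of one array (squares) and the AtrxdE2 and WT channels of the other (circles). Each channel is 1 pool, so there are no error bars. The Hnrpl points of the treated array (9.49 and 9.74) lie below those of the other array (11.18 and 10.76).

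Sfrs15 and Sfrs10, the highest members in AtrxdE2, were near WT in the treated pool. Both were picked for their high ratio in AtrxdE2, so their lower ratio in the treated pool is not separate evidence of a difference. Sfrs15 had 7.67 in AtrxdE2+TMPyP4 and 7.55 in its WT, and Sfrs10 had 7.72 and 7.54. Their differences between the pools were -0.50 and -0.43, and their Cy3 signals differed by -0.69 and -0.67 while their WT signals differed by -0.09 and -0.15. With local background the differences between the pools were -0.98 for Sfrs15 and -0.04 for Sfrs10. Snrp70 (-0.51) and Prpf39 (-0.58) also stood lower in the treated pool, with WT differences of 0.20 each.

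By class, the median difference between treated and untreated AtrxdE2 was -0.15 for Sfrs genes, with 5 of 15 above 0, and 0.13 for Hnrp genes, with 9 of 15 above 0. Sf3, Snrp and Prpf genes had medians of -0.006, -0.002 and 0.01. Apart from Hnrpa3 probe b, the upper end of the SR and hnRNP genes held Sfrs5 with 0.38, Hnrpk with 0.37 and Hnrpa0 with 0.37. Prpf19 was the highest Prpf gene with 0.28, Snrpb the highest Snrp gene with 0.18 and Sf3b1 the lowest Sf3 gene with -0.24. Close to 0 were Prpf8 with 0.01, Hnrpu with -0.05 and Hnrpa2b1 with 0.07. For Prpf8 and Hnrpu this depended on the setting, with 0.87 and 1.29 with local background and -0.35 and 0.41 in the Cy3 channels alone. Local background also turned the sign of the difference for Sfrs5 (-0.23), Snrpb (-0.25), Sf3b1 (0.06), Prpf6 (-0.53) and Sfrs2 (-0.23). The same held for Snrpg probe b (from -0.20 to 2.54), Snrpd3 (0.89), Sfrs7 (-0.53) and Prpf18 (-0.27). Without a turn of sign, Sf3b2 rose from 0.006 to 2.62, Hnrpf from 0.16 to 1.27, Sf3b5 from 0.13 to 1.12 and Sfrs1 from 0.21 to 0.86. In the other direction, Sfrs6 fell from -0.77 to -1.16 and Sf3a1 from -0.18 to -0.59. With Cy3 channels alone 2 members were at least 1.5-fold higher and 8 lower, against 6.31% and 6.88% of measured probes. Of the 53 members above the median signal 2 were higher and 7 lower, against 9.92% and 10.5% of brighter probes.

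**Figure D4:**
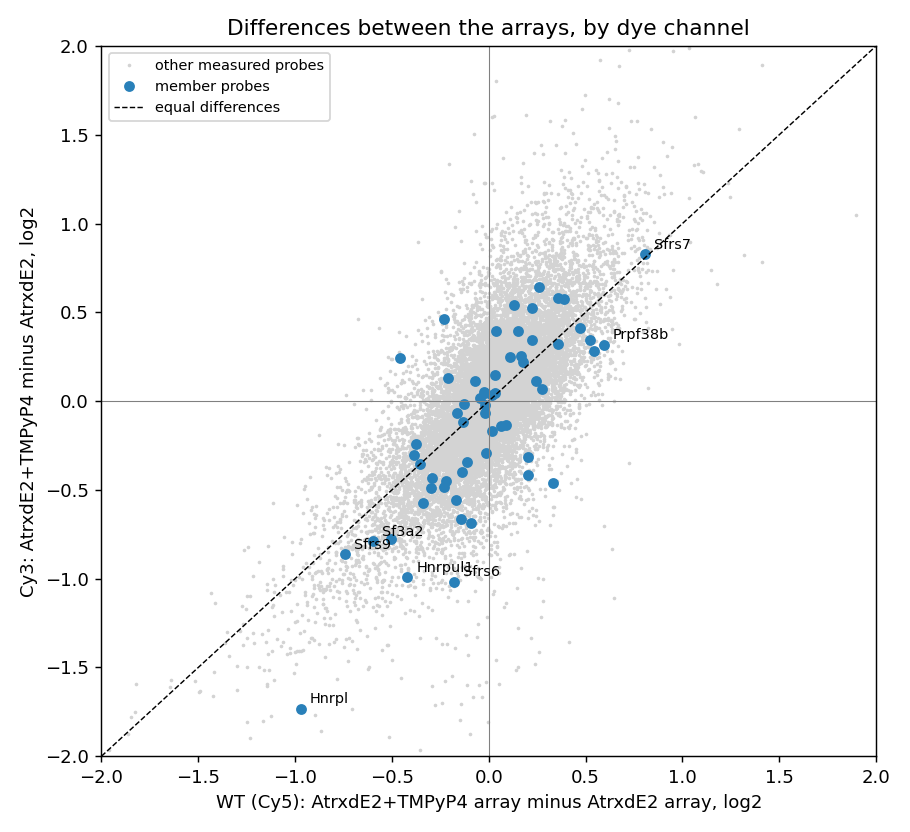
Difference between the arrays in the WT (Cy5) channel (horizontal axis) and in the Cy3 channel, AtrxdE2+TMPyP4 minus AtrxdE2 (vertical axis), in log2 units after quantile normalization within each dye. Blue points are the 60 member probes and grey points the other measured probes, of which 11 lie outside the axes. Points on the dashed line differ equally in both dyes: Sfrs7 (0.81 in WT, 0.83 in Cy3) lies on it, while Sfrs6 (-0.18, -1.02) lies below it.

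Some members differed between arrays in both dyes alike, so that the difference of their ratios was close to 0. Sfrs7, which encodes SRSF7 (9G8), differed by 0.81 in WT and 0.83 in Cy3, with a ratio difference of 0.01. With local background its ratio difference was -0.53. Sfrs9 differed by -0.74 in WT and -0.86 in Cy3, with a ratio difference of -0.10. At least 1.5-fold differences between the WT channels were found for 2 members that were higher on the treated array (Sfrs7 and Prpf38b, 0.60) and 3 that were lower (Hnrpl, Sfrs9 and Sf3a2, -0.60), against backgrounds of 1.74% and 2.88%. Sf3a2 was dim, with 14.5 units above the blank spots in AtrxdE2+TMPyP4 and 8.9 in its WT. Of the 53 members above the median signal 2 were higher and 2 lower, against 3.15% and 5.09% of brighter probes. The WT counts over all 60 members equal those for the difference of ratios between the treated and untreated pools, but a single-channel difference is another measure. The like measure, the Cy3 channels alone, had 2 of 60 members higher and 8 lower, against 6.31% and 6.88%. Of the 53 brighter members 2 were higher and 7 lower in Cy3, against 9.92% and 10.5%.

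A list of 50 other measured splicing genes (spliceosome helicases, SR kinases, coactivators and neuronal regulators) is set beside the members. In AtrxdE2 over WT, 1 of 50 was at least 1.5-fold higher and none lower, against 0.44% and 0.66% of the 13630 named measured genes. That gene was Dhx15, which encodes a helicase of spliceosome disassembly, with 0.59 in AtrxdE2 over WT and 0.58 in AtrxdE2+TMPyP4 over WT. In AtrxdE2+TMPyP4 over WT none of the 50 passed in either direction, against 0.902% and 0.462%. The list medians were 0.03 there and 0.05 in AtrxdE2. Dhx15, with 0.5849 there and 0.5854 in AtrxdE2, fell on either side of the 1.5-fold cut, so the change in count is not a change in this gene. Between treated and untreated AtrxdE2, none was higher (background 2.1%) and 3 were lower (background 1.14%). These were the SR-related coactivators Srrm2 with -0.83 and Srrm1 with -0.70, and Clk1, a kinase that phosphorylates SR proteins, with -0.77. Srrm2 had 11.89 in AtrxdE2+TMPyP4 and 12.28 in its WT, against 12.37 in AtrxdE2 and 11.93 in its WT. Clk1 had 9.24 in AtrxdE2+TMPyP4 and 9.73 in its WT, against 9.88 in AtrxdE2 and 9.60 in its WT. At the opposite end were Plrg1 with 0.58 and U2af1, the U2AF subunit that reads the 3′ splice site, with 0.49.

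Choroid plexus markers stood farther from WT than any member in AtrxdE2+TMPyP4 over WT, whereas in AtrxdE2 over WT 1 of 9 did, Ttr with 1.59. All 9 measured choroid plexus markers of 12 on the array were at least 1.5-fold higher in AtrxdE2+TMPyP4 over WT, with a median of 1.44, whereas their median was 0.03 in AtrxdE2 over WT. Their mean normalized log2 signal was 9.21 in AtrxdE2+TMPyP4 and 7.18 in its WT, and 7.11 in AtrxdE2 and 6.91 in its WT. The choroid plexus markers Aqp1, Cldn2 and F5 were not above background in every channel. The 13 meninges and fibroblast markers had medians of 0.69 in AtrxdE2+TMPyP4 and 0.39 in AtrxdE2 over WT, with mean signals of 8.01 in AtrxdE2+TMPyP4, 7.32 in its WT, 7.88 in AtrxdE2 and 7.43 in its WT. The 10 oligodendrocyte markers had medians of -0.26 and -0.55, with mean signals of 9.66 in AtrxdE2+TMPyP4, 10.02 in its WT, 9.47 in AtrxdE2 and 10.03 in its WT. The 8 striatal markers had medians of -0.51 in AtrxdE2+TMPyP4 and -0.05 in AtrxdE2 over WT. At least 1.5-fold lower were 3 of 8 in AtrxdE2+TMPyP4 and 2 of 8 in AtrxdE2, against 0.462% and 0.66% of named measured genes. Those in AtrxdE2 were Penk1 (-0.96) and Ppp1r1b (-0.90), while 3 of 8 were above 0 there. Between the WT channels, 3 striatal markers were at least 1.5-fold lower on the treated array and 1 was higher. The mean signals of the striatal markers were 8.15 in AtrxdE2+TMPyP4, 8.58 in its WT, 8.54 in AtrxdE2 and 8.78 in its WT. Hippocampal neuron, microglial and astrocyte markers had medians between -0.11 and 0.11 in both. The part of these cell types in the members' values was not tested.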

How the data were processed

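The members, lists and tests were chosen with earlier results of these data known. Per the file headers, the deposited scanner tables give a spot median intensity per channel, combined from 3 scanner gains, and a local background intensity. A further deposited table has log2 ratios, described per the labels as normalized, mutant over WT. Its scale was recovered here: subtracting the blank spots' trimmed mean in each dye and taking log2 of Cy3 over Cy5 gives these values, minus a constant of 0.65 (AtrxdE2) or 1.17 (AtrxdE2+TMPyP4), within 0.01 for 99.99% of values. This settles the direction, and each column's median is 0.0.

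Each array has 27456 spots, 2736 of them blank. Background was corrected with normexp in limma 3.58.1 (R 4.3.3) (offset 50). The background level was the blank spots' mean, trimmed by a share of 0.05 at each end, a choice that earlier work made after seeing the data. Loess followed, with control spots at weight 0, and Aquantile scaling gave the normalized log2 signals per channel. The offset compresses ratios of dim probes. A probe was measured when it carried no bad flag and exceeded the blank mean by 2 SD in every channel. Probes of a member gene were kept apart, and those of other genes averaged. The normalization was checked on these arrays with Cy3 signals of some measured spots multiplied by known factors. That check required nearly all of these spots to move in the right direction. Median signals above the blank spots were 79.0 in AtrxdE2+TMPyP4, 36.01 in its WT, 64.6 in AtrxdE2 and 42.2 in its WT.

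With 1 array per comparison nothing was tested. Counts past 1.5-fold are set beside the same share of measured probes. Named members were those past 1.5-fold, class extremes, well-known factors always named (Sfrs1, Sfrs2, Hnrpa2b1, Hnrpk, Hnrpu, Sf3b1, Snrpb, Snrp70 and Prpf8 among them) and disagreeing probes. Further members are named to account for each class. Current symbols come from RefSeq: 27 of 58 were unchanged, 30 had 1 match through a synonym and 1 had several. Alternatives were plain subtraction, local background, median centring, the deposited value table, both probe filters and the Cy3 channels alone.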

Additional observations from a re-analysis of the deposited data

Results flagged for a closer look

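A few members had ratios on opposite sides of WT on the arrays, with a difference between AtrxdE2+TMPyP4 and AtrxdE2 of at least 1.5-fold. Each side is 1 array, so the difference was not tested. Sfrs8 had -0.34 in AtrxdE2+TMPyP4 and 0.44 in AtrxdE2, a difference of -0.78. Sfrs6 had -0.23 and 0.55, a difference of -0.77. Hnrpl had -0.25 and 0.43, a difference of -0.68 that had the opposite sign with local background. Sf3a3 had 0.31 and -0.43, a difference of 0.73. Hnrpa3 probe b had 0.12 and -0.59, a difference of 0.71 that probe a of the same gene (-0.12) did not show.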

How the results depend on the processing

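No paired analysis was possible because each comparison rests on 1 array. Medians of the members moved by less than 0.1 with plain subtraction, local background, the authors' value table, both probe filters and Cy3 channels alone. With median centring they were 0.265 in AtrxdE2 over WT, 0.428 in AtrxdE2+TMPyP4 over WT and 0.229 in the difference of both. The same setting put the median of all measured probes at 0.06, 0.15 and 0.04, and that of probes above the median signal at 0.21, 0.44 and 0.23, so the members' shift was close to that of comparably bright probes. Counts past 1.5-fold with median centring were 5 higher and 0 lower in AtrxdE2 (all measured probes 3.10% and 0.17%), 15 higher in AtrxdE2+TMPyP4 (14.8%), and 6 higher and 1 lower in the difference (7.22% and 1.27%). With local background they were 0 lower in AtrxdE2 (1.45%), 8 higher in AtrxdE2+TMPyP4 (6.09%), and 11 higher and 5 lower in the difference (8.35% and 1.91%). The count of members lower in the treated than in the untreated pool was 3 as reported, 6 with plain subtraction (8.36%), 8 in the authors' value table (8.14%) and 8 with Cy3 channels alone (6.88%). Of the named values past 1.5-fold, local background reversed 2: Sfrs5 in AtrxdE2 over WT was 0.415 and Hnrpl in the difference 0.809. The cause of these changes was not tested. Of 513 values of 26 named genes over all alternatives, 444 moved by less than the SD of 0.272 between the WT channels. Both probe filters leave a probe's value unchanged, so the 81 values of each could not move and say nothing about stability. With local background 54 values moved by less than this SD, 25 moved by more and 2 reversed. With median centring 48 moved by less and 33 by more, and with Cy3 channels alone 18 and 9. With 1 pool per channel no spread between animals can be given, and dim members such as Hnrpd carry ratios that the offset compresses.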
